A study of Mus musculus with 6 samples.

Results

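The 10 genes described here, Postn, Meox1, Fap, Cthrc1, Tnc, Fn1, Spp1, Runx1, Cpxm1 and Sparc, are genes that cardiac fibroblasts are known to switch on or raise after an infarct. They were chosen by name, and all 10 were found among the 55401 rows of the count table by their Ensembl identifiers. Pdgfra and Tcf21, which mark resident cardiac fibroblasts, were read beside them. Bulk RNA-seq had been run on mouse hearts after myocardial infarction, with 3 libraries after mild cold exposure (16 °C, 7 days) and 3 at room temperature (22 °C), and the labels name no other treatment or allele. The room temperature hearts carry the same infarct and are the background for every value. The tissue is labelled whole heart. The sources used here do not state strain, age, the day after infarction or whether replicates are separate animals, so p-values measure the spread between these libraries only.

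Library totals ran from 41619023 to 65285901 counts, and the 10 genes together took 0.101% to 0.266% of them. Cardiomyocyte markers were present in all 6 libraries, at a summed level of 29080 to 47580 CPM (counts scaled to library size with TMM factors). The label of whole heart held less well for the atria: the atrial transcript Myl7 had 28312 counts in room temperature 1 and at most 18 in each of the other 5 libraries. Room temperature 1 also had the highest summed level of 8 epicardial markers (89.98 CPM, against 22.1 to 43.6 CPM elsewhere) and of 5 Schwann cell markers (58.6 CPM, against 14.7 to 17.6 CPM). Some values are therefore also given without that library, though not for every gene that moved.

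After an infarct, resident fibroblasts of the mouse heart proliferate and turn into matrix-producing cells that build the scar. This activation is driven by TGF-beta, mechanical tension and matrix receptors, and it brings up transcription factors (Meox1, Runx1), secreted matricellular proteins that tune adhesion and collagen assembly (Postn, Tnc, Spp1, Sparc, Cthrc1), the provisional matrix protein fibronectin (Fn1) and cell surface or secreted proteins of peptidase families (Fap, Cpxm1). Several of these genes are not private to fibroblasts: macrophages are known to express Spp1, Fn1 and Runx1, and endothelial cells Sparc.

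Promoter sequence was available from RefSeq (build GRCm38.p6, which is older than the GRCm39 build of the counts) for 6 of the 10 genes, with 10 start sites. Of these, 4 are shown over the 250 bases before the start, Cpxm1 and Runx1 because they had the smallest p of the 10, and Sparc and Postn because they were the most abundant per length. Runx1 and Postn have another start site each, and the window shown is the one that holds a match. Their other windows hold none. Capitals mark matches to the searched motifs.
Cpxm1 promoter, chr2:130397630-130397879, minus strand: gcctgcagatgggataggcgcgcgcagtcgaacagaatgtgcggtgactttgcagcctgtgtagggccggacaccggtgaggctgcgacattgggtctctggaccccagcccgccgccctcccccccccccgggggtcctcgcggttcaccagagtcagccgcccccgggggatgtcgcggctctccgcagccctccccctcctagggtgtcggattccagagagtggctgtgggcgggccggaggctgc
Runx1 promoter, chr16:92697330-92697579, minus strand: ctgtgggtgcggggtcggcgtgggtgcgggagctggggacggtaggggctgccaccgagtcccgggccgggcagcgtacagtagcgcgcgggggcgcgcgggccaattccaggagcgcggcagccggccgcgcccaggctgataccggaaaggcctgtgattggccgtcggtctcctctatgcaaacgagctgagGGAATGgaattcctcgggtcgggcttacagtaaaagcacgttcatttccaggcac
Sparc promoter, chr11:55420081-55420330, minus strand: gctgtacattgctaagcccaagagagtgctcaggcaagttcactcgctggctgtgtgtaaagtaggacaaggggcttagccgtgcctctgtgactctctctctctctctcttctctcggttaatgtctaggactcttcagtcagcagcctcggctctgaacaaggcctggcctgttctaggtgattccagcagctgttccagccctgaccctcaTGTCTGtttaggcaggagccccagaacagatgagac
Postn promoter, chr3:54360857-54361106, plus strand: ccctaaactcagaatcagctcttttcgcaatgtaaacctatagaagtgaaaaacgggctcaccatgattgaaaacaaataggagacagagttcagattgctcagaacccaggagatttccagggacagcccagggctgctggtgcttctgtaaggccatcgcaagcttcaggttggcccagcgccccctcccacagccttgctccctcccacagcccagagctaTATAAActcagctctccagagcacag
The motifs, searched on both strands, were TGANTCA for AP-1, TGTGGT for RUNX factors, CAGACA for SMAD factors, GGAATG for TEAD factors and TATAAA for the TATA box, and none of the marked matches overlapped another. In the lines above, Postn holds TATAAA starting 26 bases before the start, Sparc the reverse complement of CAGACA at 36 bases, Runx1 GGAATG at 55 bases, and Cpxm1 none of the 5. Over the 10 start sites, TATAAA was found in 4, where 12.4% of all 32851 promoters of the same length hold it. The windows of both Tnc start sites overlap and share 1 of these matches, which leaves 3 distinct positions. Only the Postn match lies as close as 26 bases. The Tnc match starts 126 or 205 bases before its start sites, and the Spp1 match 211 bases before its start. CAGACA was found in 3 (17.1% of all), TGTGGT in 1 (14% of all), GGAATG in 1 (12.6% of all) and TGANTCA in 0 (6.75% of all). No motif was found at all 10 start sites. The Cpxm1 window and the Runx1 window shown were rich in G and C (70.8% and 67.6%), and the Postn window shown had 52%. The other window of Runx1 had 45.6% and that of Postn 40.4%, and the median of all promoters was 52.4%.

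All 10 genes stood lower in mild cold than at room temperature, with log2 fold changes from -1.32 (Cpxm1) to -0.37 (Postn) and a median of -0.93. Over all 16757 tested genes the median was -0.02, and 52.3% were below 0. With edgeR's quasi-likelihood test none of the 10 passed an adjusted p of 0.05, where 0% of all tested genes did, so no single gene is called here. At an adjusted p of 0.1 there were 3 (Cpxm1, Runx1 and Fn1), where 1.35% of all genes passed as lower and 1.01% as higher. At an unadjusted p under 0.05 there were 6 (Cpxm1, Runx1, Fn1, Meox1, Tnc and Sparc), where 10.6% of all genes were lower by that rule. In the same 6 genes every room temperature library lay above every mild cold library, where 13.1% of all genes were lower without overlap. The DESeq2 Wald test passed 5 of them at an adjusted p of 0.05 (Cpxm1, Runx1, Fn1, Meox1 and Tnc), against 4.83% lower and 4.17% higher of the 15715 genes with an adjusted p from that test, while limma-voom passed 0 of 10 and 0% of all genes. In bulk tissue, fewer fibroblasts and less RNA per fibroblast cannot be told apart. Mitochondrially encoded genes took 34.4% to 41.04% of the counts in mild cold and 26.2% to 31.6% at room temperature. With them and the haemoglobin genes left out of the TMM scaling, the median of the 10 was -0.92. By that setting 6 were lower at an unadjusted edgeR p under 0.05, where 10.1% of all genes were. The part of the mitochondrial share in the values was not otherwise tested.

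**Figure D1:**
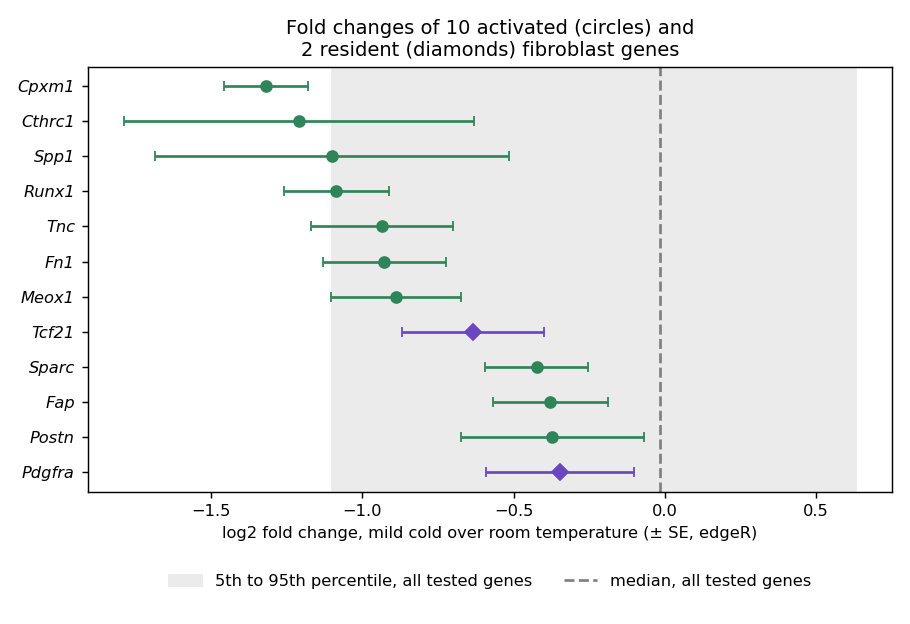
Log2 fold change of each gene, mild cold over room temperature, with its standard error from edgeR (n = 3 per group). Circles are the 10 activation genes, diamonds Pdgfra and Tcf21; the grey band spans the 5th to 95th percentile of all tested genes and the dashed line their median. All 12 values lie below 0, from -1.32 for Cpxm1 to -0.35 for Pdgfra.

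Of the transcription factors, Runx1 (ENSMUSG00000022952.17, chromosome 16), a Runt-domain factor known from blood formation and from injured heart, measured 5.53, 7.80 and 5.98 CPM in mild cold 1 to 3 and at 11.8, 15.2 and 13.9 CPM in room temperature 1 to 3. The groups did not overlap: the lowest room temperature library (11.8 CPM) lay above the highest mild cold library (7.80 CPM). The log2 fold change was -1.09 (SE 0.17, edgeR adjusted p = 0.0878). Of its relatives, Runx2, a factor of bone formation, stood at 2.38 ± 0.697 CPM against 4.07 ± 0.781 CPM (log2 fold change -0.78, edgeR adjusted p = 0.2), and Runx3, known from lymphocytes, at 1.84 ± 1.28 against 1.84 ± 0.157 CPM (SD, n = 3 per group). Cbfb, the shared DNA-binding partner of the RUNX proteins, had 42.5 ± 0.697 against 46.2 ± 2.26 CPM (log2 fold change -0.12, edgeR adjusted p = 0.435).

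Meox1 (ENSMUSG00000001493.9, chromosome 11), a homeobox factor known in mice as a switch of the activated cardiac fibroblast, measured 26.1, 36.4 and 23.7 CPM in mild cold 1 to 3 and at 40.1, 63.3 and 56.1 CPM at room temperature. The groups did not overlap, but mild cold 2 (36.4 CPM) lay close under room temperature 1 (40.1 CPM). The log2 fold change was -0.89 (SE 0.21, edgeR adjusted p = 0.114). Its relative Meox2, known from vascular cells, was not lower, at 18.4 ± 3.52 against 15.4 ± 2.68 CPM (SD, n = 3 per group, log2 fold change 0.26, edgeR adjusted p = 0.473). Of 19 tested genes in a list of fibroblast transcription factors that includes Meox1 and Runx1, 7 were lower and 0 higher at an unadjusted p under 0.05, with a median log2 fold change of -0.36. Besides Runx1, Meox1, Runx2 and Tcf21, the smallest p belonged to Tbx20, a T-box factor of cardiac muscle and fibroblasts (log2 fold change -0.68, edgeR adjusted p = 0.136), and Twist1, a factor of mesenchymal cells (-0.82, adjusted p = 0.204).

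Fn1 (ENSMUSG00000026193.15, chromosome 1), fibronectin, which cells bind through integrins in the early scar, measured 127.6, 195.3 and 219.7 CPM in mild cold 1 to 3 and at 305.8, 373.5 and 352.6 CPM at room temperature. Every room temperature library was above every mild cold library, and mild cold 1 was the lowest of the 6. The log2 fold change was -0.93 (SE 0.20, edgeR adjusted p = 0.09995). Tnc (ENSMUSG00000028364.15, chromosome 4), tenascin C, a glycoprotein that reappears in wounds and loosens adhesion, measured 4.47, 5.85 and 8.45 CPM in mild cold and at 10.6, 12.1 and 13.1 CPM at room temperature. Its groups did not overlap either (log2 fold change -0.93 with an SE of 0.23, edgeR adjusted p = 0.12). The related Tnxb, tenascin X, known from loose connective tissue, was at 128 ± 8.98 against 146.3 ± 26.5 CPM (SD, n = 3 per group, log2 fold change -0.19, edgeR adjusted p = 0.498).

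Sparc (ENSMUSG00000018593.13, chromosome 11), a collagen-binding protein needed for collagen fibre assembly, measured 529.2, 677 and 667 CPM in mild cold and at 690.9, 846 and 976 CPM at room temperature. The groups did not overlap, but room temperature 1 (690.9 CPM) lay just above mild cold 2 (677 CPM), and the log2 fold change was smaller at -0.42 (SE 0.17, edgeR adjusted p = 0.231). Sparcl1, its closest relative and an anti-adhesive protein of vessels, was at 580 ± 77.8 against 549.7 ± 88.9 CPM (log2 fold change 0.08, SD, n = 3 per group). The summed level of 8 endothelial markers was 1630 to 2293 CPM in mild cold and 1504 to 2220 CPM at room temperature, with overlap. Fabp4, a fatty acid carrier, made up the largest share of that sum, with 1515 CPM in room temperature 1. By gene, 6 of the 8 lay above 0 (median 0.29), and 2 were higher at an unadjusted p under 0.05, Emcn (0.36) and Tie1 (0.37).

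Postn (ENSMUSG00000027750.16, chromosome 3), periostin, the most used marker of the activated fibroblast, measured 361.4, 669.8 and 671.4 CPM in mild cold and at 488.4, 877.6 and 837 CPM at room temperature. The groups overlapped, since room temperature 1 was below mild cold 2 and 3, and mild cold 1 was lowest. The log2 fold change was -0.37 (SE 0.30, edgeR adjusted p = 0.541), -0.13 without mild cold 1. Leaving out room temperature 1 gave -0.60, and leaving out room temperature 2 gave -0.21. Tgfbi, its relative with the same kind of domains, was at 37.8 ± 6.01 against 54.3 ± 10.8 CPM (SD, n = 3 per group, log2 fold change -0.52, edgeR adjusted p = 0.183).

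Spp1 (ENSMUSG00000029304.14, chromosome 5), osteopontin, a secreted ligand of integrins and Cd44, measured 3.92, 10.9 and 9.31 CPM in mild cold and at 5.30, 19.8 and 26.3 CPM at room temperature. Cthrc1 (ENSMUSG00000054196.7, chromosome 15), a secreted protein known in mice to mark fibroblasts of the healing scar, measured 1.59, 5.09 and 2.77 CPM in mild cold and at 2.55, 9.85 and 9.34 CPM at room temperature. In both genes the first library of each group was the lowest, and room temperature 1 fell among the mild cold libraries. Their log2 fold changes were large but poorly determined, at -1.10 (SE 0.58, edgeR adjusted p = 0.343) for Spp1 and -1.21 (SE 0.58, adjusted p = 0.297) for Cthrc1. Without room temperature 1 they were -1.53 and -1.62 (edgeR adjusted p = 0.154 and 0.161), and without room temperature 3 they were -0.65 and -0.98. Spp1 was at -0.76 without mild cold 1, and Cthrc1 at -1.74 without mild cold 2.

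Since Spp1 is also a macrophage gene, macrophage markers are given beside it. The summed level of 13 macrophage markers was 615.9 to 824 CPM in mild cold and 632.8 to 1098 CPM at room temperature, with overlap, and 12 of 13 had a log2 fold change below 0 (median -0.24). A list of 10 markers of Spp1-high macrophages had 6 below 0 and 4 above, with 2 lower and 1 higher at an unadjusted p under 0.05 (median -0.35). The higher gene was Arg1, arginase 1, at 5.79, 0.375 and 6.25 CPM in mild cold and 0.255, 0.863 and 0.299 CPM in room temperature 1 to 3 (log2 fold change 3.16, edgeR adjusted p = 0.158), with overlap through mild cold 2. Lpl (0.27), Fabp5 (0.13) and Ctsd (0.12) also lay above 0. Lpl stood at 4021 to 5787 CPM over the libraries, above the summed level of the 13 macrophage markers. Its value can therefore not be read as that of macrophages alone. The lower genes were Gpnmb and Lgals3. Gpnmb, a marker of lipid-handling macrophages, stood at 4.37, 3.86 and 8.95 CPM in mild cold and at 11.3, 8.60 and 36.2 CPM at room temperature, where room temperature 3 was the highest library for Spp1 too. Lgals3, galectin 3, was at 5.88, 9.68 and 10.04 CPM against 39.7, 17.2 and 21.6 CPM (log2 fold change -1.62, edgeR adjusted p = 0.0998), but its highest library was room temperature 1, where Spp1 was low. The part of macrophages in the Spp1 values was not tested.

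Of the proteins of peptidase families, Cpxm1 (ENSMUSG00000027408.7, chromosome 2), a secreted carboxypeptidase-like protein that binds collagen, showed the smallest p of the 10 and the third smallest of all tested genes. It measured 4.75, 5.15 and 5.62 CPM in mild cold 1 to 3 and at 11.9, 12.4 and 14.4 CPM at room temperature. The libraries within each group were close together (coefficients of variation of 8.49% and 10%) and the groups far apart. The log2 fold change was -1.32 (SE 0.14, edgeR adjusted p = 0.0813), a fold of 0.401. Its relatives Aebp1, a collagen-binding protein of the same family, and Cpxm2 were at 27.2 ± 6.23 against 61.1 ± 11.1 CPM (-1.17, edgeR adjusted p = 0.0878) and at 51.7 ± 10.6 against 93.5 ± 28.1 CPM (-0.86, adjusted p = 0.147), with n = 3 per group. An active enzyme of the family, Cpe, which trims peptide hormones, was at 190 ± 7.82 against 222.4 ± 39.1 CPM (log2 fold change -0.23, SD, n = 3 per group).

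Fap (ENSMUSG00000000392.17, chromosome 2), fibroblast activation protein, a serine protease of the cell surface, measured 6.45, 8.04 and 9.26 CPM in mild cold and at 8.45, 10.3 and 12.1 CPM at room temperature. Mild cold 3 lay above room temperature 1, so the groups overlapped, and the log2 fold change was -0.38 (SE 0.19, edgeR adjusted p = 0.318). It was -0.25 both without mild cold 1 and without room temperature 3. Dpp4, the related protease that forms dimers with Fap, was at 4.65 ± 0.13 against 6.64 ± 3.2 CPM (SD, n = 3 per group, log2 fold change -0.51, edgeR adjusted p = 0.411), with 10.3 CPM in room temperature 1.

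**Figure D2:**
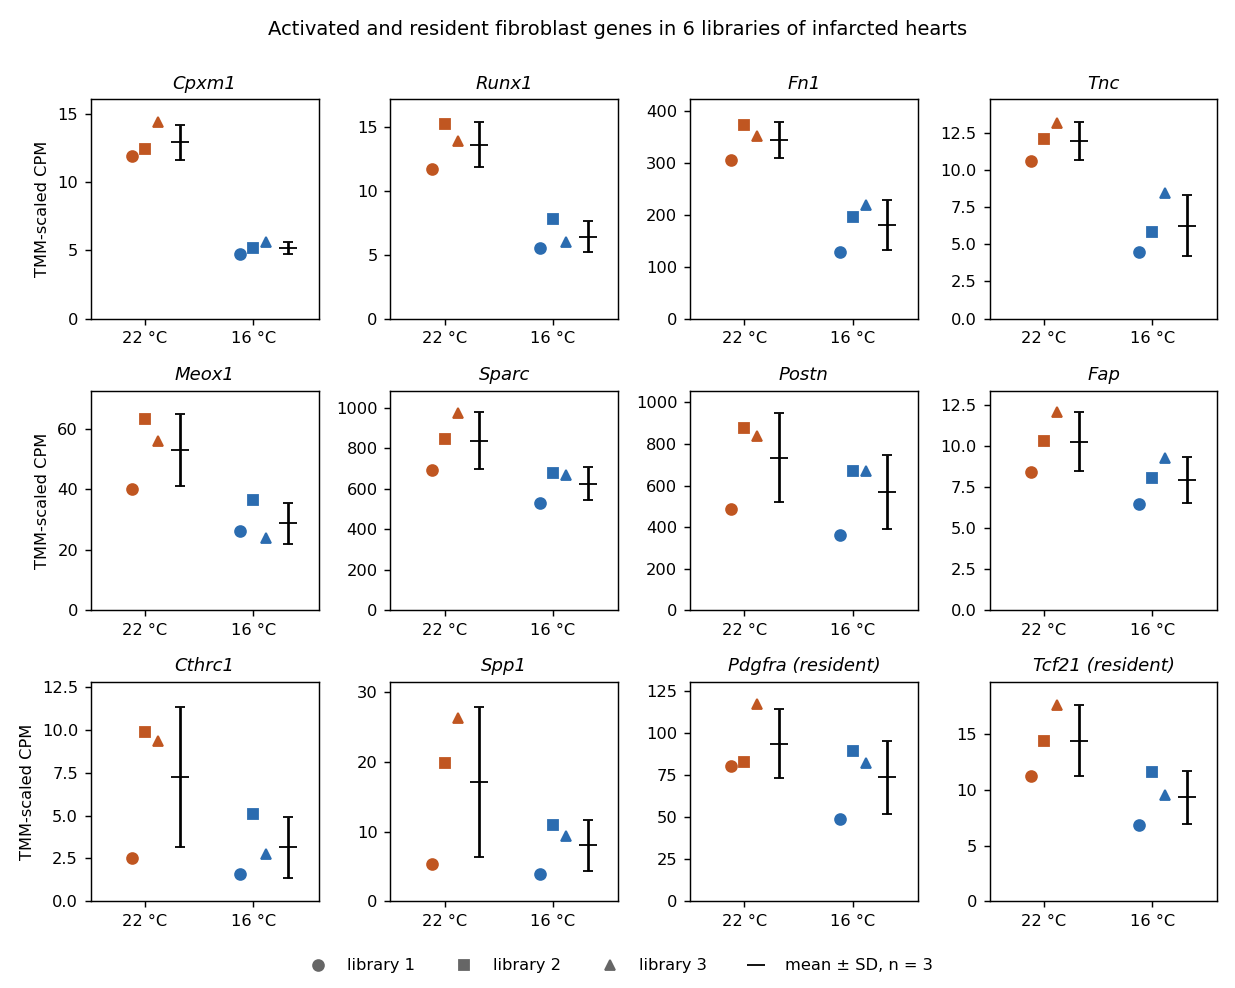
TMM-scaled CPM of each gene in every library; orange symbols are room temperature (22 °C), blue symbols mild cold (16 °C), the symbol shape gives the library number, and black bars are mean ± SD (n = 3 per group). In Cpxm1, Runx1, Fn1, Tnc, Meox1 and Sparc all 3 mild cold libraries lie under all 3 room temperature libraries, while the other 4 genes, Pdgfra and Tcf21 overlap.

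Per kilobase of exon, the order of the 10 genes was the same in both groups. At room temperature Sparc was the most abundant at 221 ± 37.7 CPM per kb, before Postn (84.4 ± 24.6), Fn1 (29.4 ± 2.97), Meox1 (23.9 ± 5.35) and Spp1 (10.4 ± 6.52). Cpxm1 (5.30 ± 0.532), Cthrc1 (4.55 ± 2.56), Fap (1.82 ± 0.321), Tnc (1.53 ± 0.163) and Runx1 (1.14 ± 0.146) followed (SD, n = 3). The libraries' ranges separated Sparc from Postn, Postn from Fn1, Meox1 from Spp1 and Tnc from Runx1, while Fn1 and Meox1 overlapped, as did each neighbouring pair from Spp1 down to Tnc. Of the exon bases of Spp1, 18.8% are shared with the annotated gene Gm42793, which held at most 4 counts in any library, and the other 9 genes shared at most 2.5% with another gene.

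Of the resident fibroblast genes, Pdgfra, the PDGF receptor that marks cardiac fibroblasts, stood at 48.97, 89.5 and 82.5 CPM in mild cold and at 80.8, 82.7 and 117 CPM at room temperature. Its groups overlapped, with mild cold 1 as the lowest library (log2 fold change -0.35 with an SE of 0.25, edgeR adjusted p = 0.478). The value was -0.12 without mild cold 1 and -0.15 without room temperature 3. Tcf21, a basic helix-loop-helix factor of resident fibroblasts, stood at 6.81, 11.6 and 9.56 CPM against 11.2, 14.4 and 17.7 CPM. It overlapped only through mild cold 2 and room temperature 1 (log2 fold change -0.63 with an SE of 0.23, edgeR adjusted p = 0.206). Of 14 genes in a wider list of resident fibroblasts, 7 were lower and 0 higher at an unadjusted p under 0.05, 10 had a log2 fold change below 0 and the median was -0.40. Those 7 included Tcf21 itself, Gsn, gelsolin, an actin-severing protein (log2 fold change -0.49), Dcn, decorin, a collagen-binding proteoglycan (-0.63), and Mfap4, a microfibril protein (-1.16). In the same list Smoc2 (-0.14) and Abca8a (-0.11) were closer to 0, and Cxcl14 (0.56), Hsd11b1 (0.30), Scara5 (0.14) and Dpep1 (0.10) lay above it, none of these 6 at an unadjusted p under 0.05.

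To set activation against resident fibroblasts within each library, each gene was divided by Pdgfra of the same library, on the log2(CPM + 0.5) scale. The ratio of Cpxm1 to Pdgfra was -3.24, -3.99 and -3.76 in mild cold 1 to 3 and -2.71, -2.69 and -2.99 at room temperature, a difference of -0.87. For Runx1 the difference was -0.67, for Fn1 -0.59 and for Tnc -0.55. In these 4 genes the mild cold ratios were all under the room temperature ratios, where 1.33% of all tested genes were lower without overlap and the median difference of all genes was 0.36. Each had an exact 2-sided permutation p of 0.1, the smallest that 3 against 3 allows, and 0.25 after adjustment over the 10 ratios. For Runx1 the groups barely parted, at -3.037 in mild cold 1 against -3.029 in room temperature 3. With 1 CPM added in place of 0.5, its exact permutation p was 0.2. The ratios of Postn (difference -0.01), Fap (0.01) and Sparc (-0.05) to Pdgfra differed little between the groups, within the spread of the libraries (SD up to 0.416, 0.284 and 0.27, n = 3 per group). Meox1 (-0.51), Cthrc1 (-0.64) and Spp1 (-0.52) had overlapping ratios (exact permutation p = 0.3, 0.4 and 0.4). Single libraries weighed on these: the difference for Meox1 was -0.28 without mild cold 3 and -0.29 without room temperature 2. For Cthrc1 it was -1.12 without room temperature 1 and -0.25 without room temperature 2. For Spp1, leaving out room temperature 1, 2 or 3 gave -1.10, -0.21 or -0.26. For Tnc it was -0.36 without mild cold 2. Set against Tcf21 instead, 7 of 10 ratios were below 0, and those of Postn, Fap and Sparc were above it (0.23, 0.26 and 0.19), though under the median of all genes against Tcf21 (0.60). Of the 10 only Cpxm1 (-0.63) kept its groups apart against Tcf21, where 0.471% of all genes were lower without overlap.

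**Figure D3:**
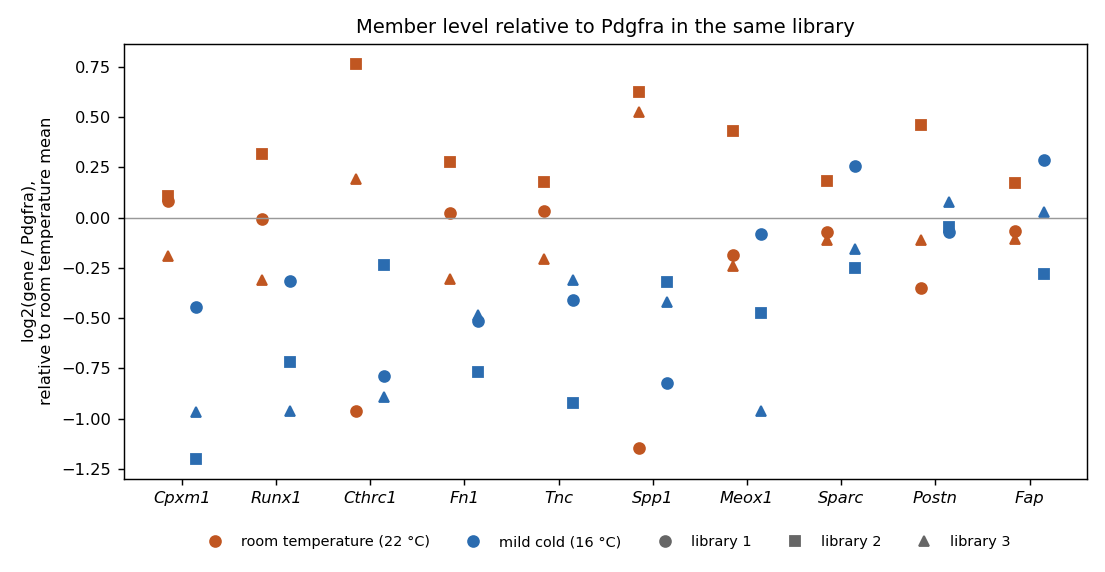
Log2 ratio of each gene to Pdgfra in the same library, shown relative to its room temperature mean; orange is room temperature, blue mild cold, and the symbol shape gives the library number. Cpxm1, Runx1, Fn1 and Tnc have no overlap between the groups (Runx1 only barely), with differences of -0.87 to -0.55, while Sparc, Postn and Fap lie around 0.

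The libraries of a group were not alike. Room temperature 1 was the lowest room temperature library for 10 of the 10 genes, and mild cold 1 the lowest mild cold library for 9 of 10, the exception being Meox1. On the log2(CPM + 0.5) scale the mean deviation of the 10 genes from their 6-library means was -0.05, 0.60 and 0.66 in room temperature 1 to 3 and -0.79, -0.16 and -0.26 in mild cold 1 to 3. Room temperature 1 thus stood nearer to mild cold 2 and 3 than to its own group in this mean. Without room temperature 1, all 10 genes had both remaining room temperature libraries above every mild cold library, where 17.8% of all genes were lower in that way, and 9 were lower at an unadjusted p under 0.05, where 8.43% of all genes were. Since room temperature 1 was the lowest of its group in all 10, leaving it out raises the mean of that group for each gene. With any 1 of the other libraries left out, 5 or 6 were lower at that p, where 7.73% to 10.2% of all genes were.

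**Figure D4:**
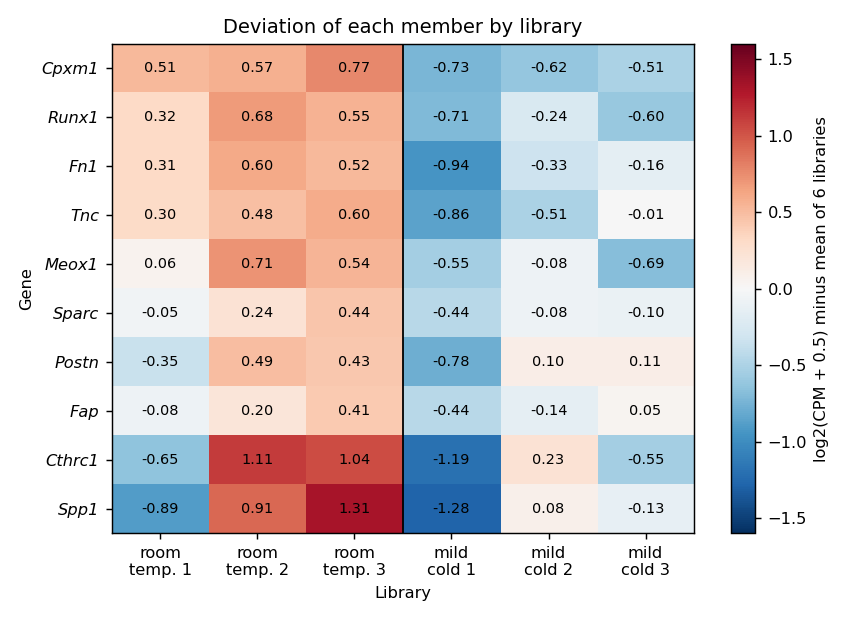
Each cell gives the log2(CPM + 0.5) of a gene in a library minus the mean of its 6 libraries, red above and blue below; the black line separates room temperature from mild cold. Mild cold 1 is below 0 for all 10 genes, and room temperature 1 ranges from -0.89 (Spp1) to 0.51 (Cpxm1).

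Across the 6 libraries the 45 pairs of genes had a median Pearson r of 0.85, from 0.53 (Postn and Cpxm1) to 0.98 (Tnc and Fn1), as a description of libraries that share the group difference. With the group means taken out the median was 0.77, and 44 of 45 pairs were above 0. The closest pairs outside Tnc and Fn1 were Fap with Sparc (0.97), Meox1 with Runx1 (0.96) and Cthrc1 with Spp1 (0.96). Of 10366 other genes with a mean of at least 5 CPM, those most like the mean of the 10 over the 6 libraries were Abi3bp (r = 0.998), Slc30a4 (0.997), Pdgfrl (0.996), Bgn (0.993), Myoc (0.992), Mmp2 (0.992), Uchl1 (0.991) and Kdelc2 (0.99). Abi3bp and Bgn code for matrix proteins and Mmp2 for a matrix protease, and their log2 fold changes were -1.44, -0.90 and -0.89. Genes named in this way were picked for following the mean of the 10, which was itself lower in mild cold. Their values below 0 therefore follow from the choice and are no separate result. The highest r among 10366 candidates over only 6 libraries is also raised by the picking. For comparison, r was 0.97 for Tcf21 and 0.82 for Pdgfra.

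Other genes of fibroblast activation mostly lay below 0 as well. Of 32 listed, all were tested, and 31 had a log2 fold change below 0, with a median of -0.79. At an unadjusted p under 0.05, 19 were lower and 1 higher (all genes 10.6% and 9.11%), with 0 past edgeR's adjusted p of 0.05 and 11 past that of the DESeq2 Wald test. The higher gene was Lrrc15, at 26.95, 10.7 and 16.8 CPM in mild cold and 6.98, 14.2 and 7.97 CPM in room temperature 1 to 3. Its groups overlapped (log2 fold change 0.91, edgeR adjusted p = 0.246). Next to Aebp1, the smallest p were those of Ccn2, connective tissue growth factor (log2 fold change -1.33), Ckap4, a membrane protein of the endoplasmic reticulum (-0.54), and Col1a2, a chain of type I collagen (-0.88). Of 23 receptors and partners of the proteins, 12 were lower and 0 higher by the same rule, with a median of -0.51. Cd44, the hyaluronan receptor that also binds osteopontin, stood at 14.7, 15.4 and 13.3 CPM in mild cold and at 35.1, 27.03 and 26.6 CPM in room temperature 1 to 3 (log2 fold change -1.03 with an SE of 0.14, edgeR adjusted p = 0.0813). Itgav, the alpha-V integrin chain that binds fibronectin, periostin and osteopontin, was at 40.8 ± 2.6 against 60.6 ± 3.83 CPM (SD, n = 3 per group, log2 fold change -0.57), and Egfr, to which tenascin C repeats bind, was at -0.57. Itgb1, the common beta chain of the fibronectin receptors, was at 612 ± 23.9 against 636.8 ± 38.8 CPM (-0.06), and of the candidate partners of Cthrc1, Fzd6 (0.26), Vangl2 (0.31), Ror2 (-0.34) and Wnt5a (-0.06) did not pass.

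Markers of other cell types did not all go the same way as the 10 genes. At an unadjusted p under 0.05, 10.6% of all genes were lower and 9.11% higher. Of 7 neutrophil markers 4 were tested and 3 were higher at an unadjusted p under 0.05, the calprotectin genes S100a8 (log2 fold change 2.96) and S100a9 (2.58) and the chemokine receptor Cxcr2 (2.31). Their levels were low, and the whole list summed to 3.51 to 16.4 CPM in mild cold and 2.79 to 4.64 CPM at room temperature, with overlap. Of 5 red cell genes 0 were below 0 and 1 was higher, Hba-a2 (1.04), with a median of 0.52. Pericyte markers had 5 of 8 higher and 1 lower at an unadjusted p under 0.05 (median log2 fold change 0.49, summed 1839 to 1850 CPM in mild cold and 1186 to 1539 CPM at room temperature). Cardiomyocyte markers had a median of 0.44, and their summed level was 40360 to 47580 CPM in mild cold and 29080 to 41420 CPM at room temperature. Of 8 smooth muscle markers 4 were lower (median -0.53), and the summed level of the 8 overlapped, at 1584 to 1606 against 1481 to 1702 CPM. The lower genes, Myh11, Cnn1, Lmod1 and Acta2, were each highest in room temperature 1. Myh11 stood at 209.9 CPM there, against 92.0 and 88.6 CPM in room temperature 2 and 3. Of 8 epicardial markers 5 were lower (median -3.23), with Krt19 at 17.5 CPM in room temperature 1 and at most 1.20 CPM in each other library. Of the lymphocyte list 7 of 8 genes were tested and 7 had a value below 0, at summed levels of 2.47 to 3.23 against 4.91 to 6.47 CPM. The part of these shifts in the values of the 10 genes was not tested.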

How the data were processed

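Total heart RNA was extracted with TRIzol and libraries were made from enriched mRNA, per the labels' protocols, 3 for mild cold and 3 for room temperature. The authors deposited unnormalized whole-number counts for each gene. The tool featureCounts 2.0.3 and the build GRCm39 are listed in the submitters' processing notes; no aligner, annotation release, strand or read-pair setting is stated there. Between 71.9% and 78.3% of each library's counts from 1 to 10 were even, so a fragment may have been counted more than once and the depth in fragments may be lower than the totals. Symbols, exon lengths and overlaps came from GENCODE M21 by unversioned Ensembl identifier (55141 of 55401 matched), and no coordinates are taken from it.

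The test was that of edgeR 4.0.16 under R 4.3.3 (quasi-likelihood, 2-sided, group only, default expression filter, TMM scaling, 16757 genes, Benjamini-Hochberg over all of them, threshold 0.05). CPM are TMM-scaled, and a negative log2 fold change means lower in mild cold. DESeq2 1.42.0 (its independent filter set for 0.05, which left 1042 genes without an adjusted p) and limma 3.58.1 (voom) were alternatives, beside other scalings and filters, single libraries left out and a replicate block. Single ratios were compared by exact permutation, and lists by counts and medians only. The 10 genes, the lists and the rules were chosen with earlier results of these data known. The genes named are the 10, Pdgfra and Tcf21, their family relatives, up to 4 genes of a context list by smallest p, and the 8 most similar genes. Others, among them members of the receptor and resident lists given for contrast, were named after their values were seen. The test was tried on simulated counts first. At an adjusted p of 0.05 it recovered 4 of 49 genes with a 1.5-fold change and 20 of 47 with a 2-fold change. For 4-fold and 8-fold changes it recovered 39 of 50 and 41 of 49, with 11 false calls among 16437 genes. Changes of 2-fold or less were thus mostly missed there. No pair of libraries held the same counts.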

Additional observations from a re-analysis of the deposited data

How the results depend on the processing

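All 10 genes kept a log2 fold change below 0 under each of the 17 alternative settings, and both sizes and counts of calls moved: Spp1 ran from -1.53 to -0.31, Postn from -0.62 to -0.025 and Fap from -0.64 to -0.11. Of all genes and of the 10, an adjusted p of 0.1 gave 396 and 3, library totals only 356 and 4 (Meox1, Fn1, Runx1, Cpxm1), no expression filter 184 and 2 (Runx1, Cpxm1) and the DESeq2 Wald test 1414 and 5, against 0 and 0 with edgeR as described. Library totals moved the median of all genes from -0.02 to -0.27 and that of the 10 from -0.93 to -1.19, with 10 higher and 346 lower calls, while the DESeq2 test gave 655 higher and 759 lower. Leaving out single libraries gave 0 to 2 calls of all genes and 0 of the 10. At an unadjusted p under 0.05 it gave 5 to 9 of the 10, where 7.73% to 10.2% of all genes were lower. It gave 6 to 10 without overlap, a count that leaving out a library cannot lower. Of all genes, 13.1% were lower without overlap in the full set of libraries and 17.8% without room temperature 1. With the replicate block 1 gene of all and 0 of the 10 passed, and 10 of the 10 were lower at an unadjusted p under 0.05, where 9.46% of all genes were. Same-numbered libraries correlated at r = 0.11, -0.14 and -0.03 in their deviations from the group means. Yet library 1 was the lowest of its group for 10 of the 10 genes at room temperature and 9 of 10 in mild cold. With 3 libraries per group and labels that name no pairs, these values cannot decide whether the numbers pair the libraries. Without the 2 deepest libraries the median of the 10 was -0.66 and Pdgfra turned to 0.075. Ratios to Pdgfra near 0 changed sign: with Tcf21 as reference Postn was at 0.23 and Sparc at 0.19, with the mean of Pdgfra and Tcf21 at 0.11 and 0.072, and with a pseudocount of 0.1 CPM Fap was at -0.0013. With single libraries left out, the ratio ran from -0.19 to 0.22 for Postn, -0.12 to 0.16 for Fap and -0.20 to 0.051 for Sparc, and from -1.08 to -0.70 for Cpxm1. The causes were not tested. The counts at an unadjusted p and without overlap under these settings were chosen after seeing the data.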
